A study of Mus musculus with 2 samples.

Results

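The genes described here are those of the nonapeptide hormones vasopressin and oxytocin, Avp and Oxt, and of the receptors Avpr1a and Oxtr. These 4 genes, of 28692 in the count matrices, were taken by symbol, and they were followed in single cells of the mouse lateral hypothalamic area. Cells with 10 or more UMIs (unique molecular identifiers, each standing for 1 captured transcript) of Avp or Oxt are called high cells. There were 23 of them, 14 in the library labelled male and 9 in the library labelled female.

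The study asked which molecular types of inhibitory and excitatory neurons make up this region. Each of its libraries was a pool of C57BL/6 littermates at postnatal day 30, from 3 animals for the library labelled male and 2 animals for the library labelled female. The tissue was microdissected from brain slices, dissociated and run on the 10x Genomics droplet platform, which reads the 3′ ends of transcripts. Neurons were grouped by vesicular transporter or by peptide. Inhibitory neurons held Slc32a1 (GABA transporter) and no Slc17a6 (glutamate transporter), 985 and 1107 cells in the libraries labelled male and female, and excitatory neurons the reverse, 710 and 781. Hcrt-high neurons (83 and 83 cells) and Pmch-high neurons (85 and 61) were those in which Hcrt, the hypocretin (orexin) precursor gene, or Pmch, that of melanin-concentrating hormone, made up at least 0.3% of UMIs. These groups were taken by peptide share alone, with no transporter condition. They were set against the excitatory neurons below that share for both, called the other excitatory neurons (599 and 684). Pairs of values are given for the library labelled male first and the library labelled female second.

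The libraries held 23151801 and 27437142 UMIs in 3439 and 3793 barcodes, with medians of 5718 and 6289 UMIs per barcode. After filtering 3186 and 3520 cells remained, of which 2036 and 2258 lay in clusters with neuronal markers. The labelled region was matched by the Hcrt-high and Pmch-high neurons, both peptides being markers of the lateral hypothalamic area. The labels of sex were contradicted by sex-linked genes: Xist, which is transcribed from the silenced X chromosome, had 20641 UMIs in the library labelled male and 30 in the library labelled female, and Ddx3y on the Y chromosome 0 and 4524. Directions between the libraries are therefore directions between labels, and with 1 library for each label they carry no test. The libraries shared 18 barcodes, 0.523% and 0.475% of each, and no high cell was among them.

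Vasopressin and oxytocin are made as larger precursors that also hold a carrier protein, neurophysin, and are cut in dense-core granules on the way to the nerve ending. Large magnocellular neurons of the paraventricular and supraoptic nuclei send both peptides to the posterior pituitary, where vasopressin is released to retain water and oxytocin to contract the uterus and let down milk. Smaller neurons, among them vasopressin neurons of the suprachiasmatic nucleus, release them within the brain. Avpr1a and Oxtr are receptors that couple to Gq proteins, activate phospholipase C and release calcium from internal stores.

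The peptide genes are close paralogs that lie tail to tail. Oxt (ENSMUSG00000027301) lies at chr2:130576173-130577054 on the + strand and Avp (ENSMUSG00000037727) at chr2:130580620-130582554 on the - strand (GENCODE M21 on GRCm38), with 3565 bases and 0 annotated genes between their 3′ ends. Each has 3 exons. The coding sequences of the mature hormones, 27 bases in exon 1 of each gene (Oxt chr2:130576267-130576293, Avp chr2:130582446-130582472), are shown because they define the molecules counted here. Capitals mark the bases that differ.
Oxt: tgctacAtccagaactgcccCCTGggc
Avp: tgctacTtccagaactgcccAAGAggc
The differences are A7T, C21A, C22A, T23G and G24A, with the Oxt base first and positions counted from 1 at the first base shown. They fall in 3 of the 9 codons.

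The longest run of bases that both transcripts share is 127 bases of the neurophysin coding sequence, which spans exons 1 and 2. It is shown because a read within it could come from either gene.
Oxt and Avp: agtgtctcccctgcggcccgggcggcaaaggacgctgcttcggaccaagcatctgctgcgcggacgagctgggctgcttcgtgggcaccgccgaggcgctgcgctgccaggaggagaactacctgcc
This run ends 255 bases before the end of the 537-base Oxt transcript and 307 bases before the end of the 577-base Avp transcript. Within the last 100 bases of each transcript the longest shared run was 8 bases. Where the reads fell along the transcripts was not examined. How the authors' counting treated reads that match both genes is not given in the sources used here, so small counts of one peptide in cells rich in the other are uncertain.

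The receptor genes lie on other chromosomes. Avpr1a (ENSMUSG00000020123) is at chr10:122448499-122453452 on the + strand and Oxtr (ENSMUSG00000049112) at chr6:112473683-112489943 on the - strand, each with 2 exons in the reference transcript. Avpr1a overlaps 1 other annotated gene, Gm48877, while Oxt, Avp and Oxtr overlap no other annotated gene.

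Nearly all Avp transcripts were in a few cells. Over all barcodes Avp had 6639 and 4546 UMIs, or 287 and 166 UMIs per 1000000 (CPM). Of these, 90.5% and 88.5% lay in the 13 and 9 cells with 10 or more Avp UMIs, which were 0.378% (95% Clopper-Pearson interval 0.201 to 0.646) and 0.237% (0.109 to 0.450) of barcodes. Intervals of shares, counts and ratios cover counting error only. Oxt was rarer still. It had 1262 and 5217 UMIs (54.5 and 190 CPM), of which 85.5% and 93.8% lay in 4 cells and 1 cell with 10 or more. The higher Oxt total of the library labelled female thus came from 1 cell with 4895 UMIs, the highest count of a member in any cell.

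At a limit of 5 UMIs in place of 10, the cells counted for Avp were 20 in place of 13 in the library labelled male and 9 at either limit in that labelled female, and for Oxt 9 in place of 4 and 5 in place of 1. For Avp the cells just inside the limit of 10 had 18 and 12 UMIs and those just outside 8 and 4. For Oxt they had 20 and 4895 inside, and 7 and 9 outside. Most cells below the limit held a single UMI, 88.3% and 89.8% of those with any Avp and 85.5% and 93.2% of those with any Oxt. No high cell had been removed as low in quality or as a doublet.

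**Figure D1:**
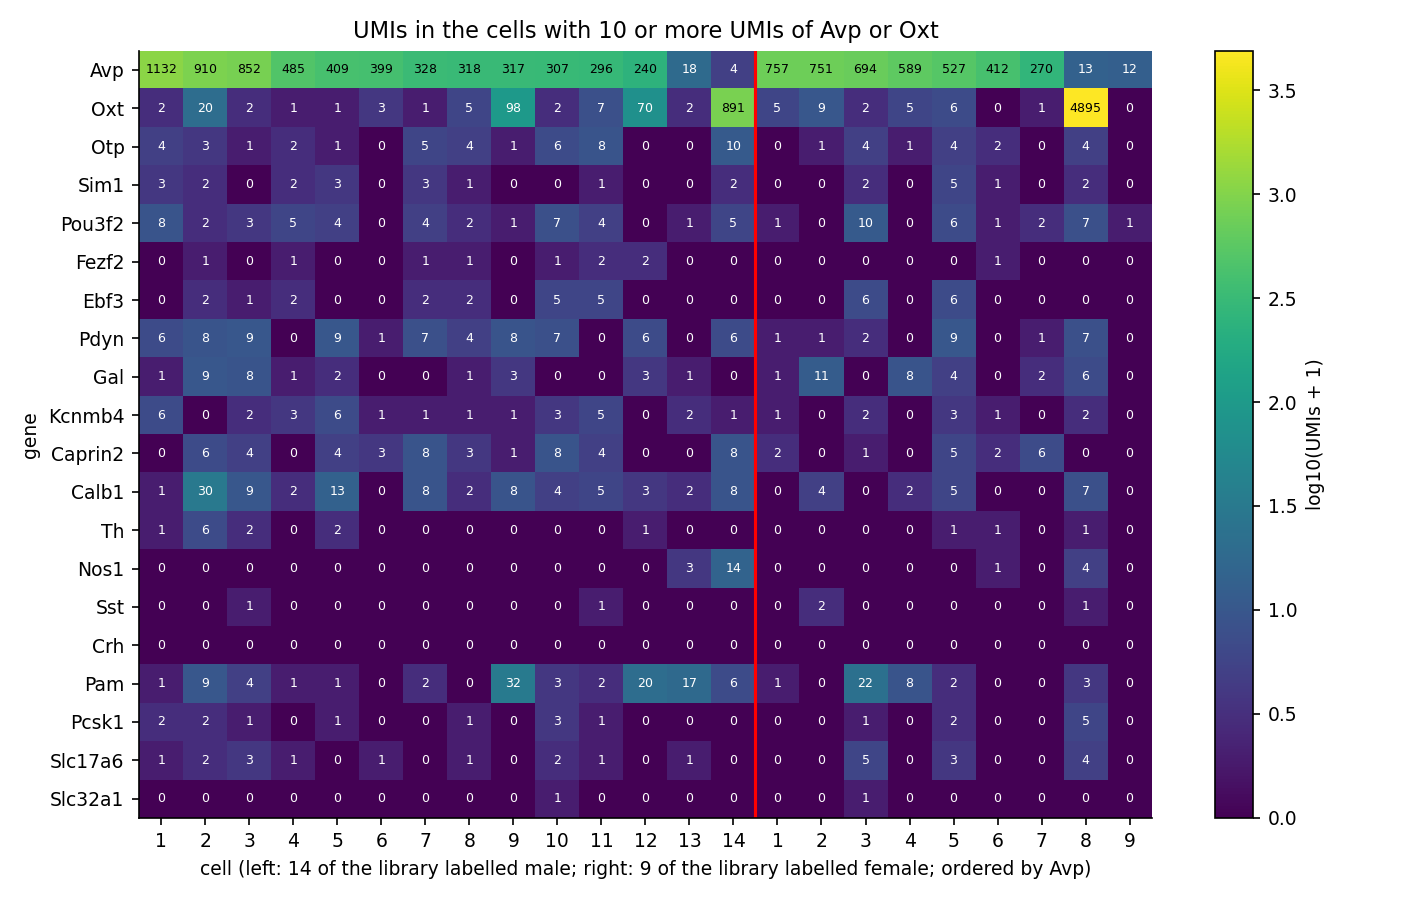
Heat map of UMIs of Avp, Oxt and further genes (rows) in each of the 23 high cells (columns), with 14 cells of the library labelled male left of the line and 9 of that labelled female right of it, each ordered by Avp and coloured by log10(UMIs + 1). In 19 cells Avp has 240 to 1132 UMIs and in 2 cells Oxt has 891 and 4895 UMIs. Ebf3 and Fezf2 are at 0 in both of these 2 cells and also in several of the 19.

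The cells rich in Avp formed a distinct set. In 19 cells (12 and 7) Avp had from 240 to 1132 UMIs with a median of 412, and no cell lay between 18 and 240. In the library labelled male these cells held 240 to 1132 Avp UMIs with a median of 364, and in the library labelled female 270 to 757 with a median of 589, so that the ranges overlapped. Avp took 2.65% to 19.7% of all UMIs of such a cell, with a median of 7.19%. Shallow cells had the higher share: it was 8.74% to 19.7% (median 13.03%) in the 8 cells under 5000 UMIs and 2.65% to 10.2% (median 3.51%) in the 11 cells of 8000 or more. The count itself was closer, with medians of 406 and 485 Avp UMIs, and all 19 cells lay in one of these depth ranges.

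Oxt-rich cells were fewer and kept little Avp. In the library labelled male 1 cell held 891 Oxt and 4 Avp UMIs, 4.48% and 0.0201% of its UMIs. In the library labelled female 1 cell held 4895 Oxt and 13 Avp UMIs, 27.4% and 0.0727% of its UMIs. Both cells were deep, with 19873 and 17871 UMIs. No cell held 100 or more UMIs of both peptides. At the limit of 10, 4 of the 5 cells with 10 or more Oxt UMIs also held 10 or more of Avp.

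Lower Oxt counts in Avp cells varied. In 16 of the 19 Avp cells Oxt had 0 to 9 UMIs, and over all 19 its median was 3. The other 3 cells, all in the library labelled male, held 98, 70 and 20 Oxt UMIs beside 317, 240 and 910 of Avp. The first 2 of these were shallow, with 3522 and 2746 UMIs and 11.6% and 14.4% of them mitochondrial, against a median of 7.54% in the 19 cells. Whether these 3 cells made both transcripts was not tested.

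**Figure D2:**
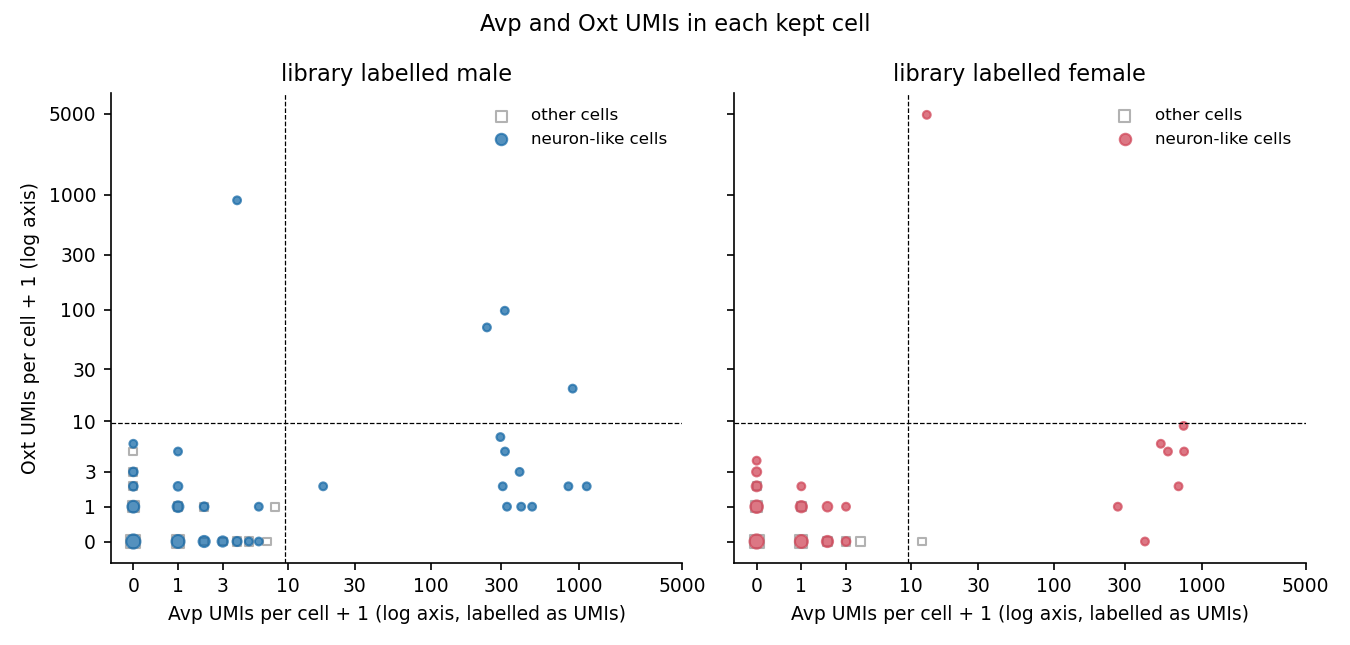
Avp UMIs (horizontal) against Oxt UMIs (vertical) per kept cell on log axes, for the libraries labelled male and female, with neuron-like cells and cells of the other classes marked apart. Cells with 100 or more UMIs of Avp hold at most 98 of Oxt, and the cells with 891 and 4895 Oxt UMIs hold 4 and 13 of Avp.

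Most high cells shared a cluster. Clusters were made without the 4 genes among the variable genes. Of the 23 high cells 22 were neuron-like. The exception was a shallow astrocyte-like cell with 12 Avp UMIs, 2284 UMIs in all and 17.1% mitochondrial UMIs. Of the 19 Avp-rich cells 15 lay in cluster 7, an excitatory cluster of 714 cells led by Nrn1, Ebf3 and Slc17a6, and so did both Oxt-rich cells. The other 4 Avp-rich cells were spread over clusters 12, 11, 13 and 3, and had 2406, 2746, 3940 and 2419 UMIs. The cell with 18 Avp UMIs lay in the Pmch cluster.

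Transporters were counted in about as many high cells as not. Slc17a6 without Slc32a1 was counted in 10 of the 23, both in 2, neither in 11 and Slc32a1 alone in 0. Slc17a6 was found in 9 of the 11 deeper and 1 of the 8 shallower Avp-rich cells. Slc17a6 had 127 CPM in high cells, against 185 CPM in the other 4272 neurons and 509 CPM in the rest of cluster 7. The enzymes that make GABA were low: Gad1 had 25.4 CPM in high cells, against 400 CPM in other neurons, and Gad2 45.8 CPM, against 586 CPM.

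Transcription factors of paraventricular and supraoptic neurons were high in these cells. Levels were computed without the Avp and Oxt UMIs, as sums over the 23 high cells and over the other 4272 neurons. Of the 9 factors listed, 7 had a UMI in high cells, with a median ratio of 5.23. Of these 7, 6 were above in both libraries and 0 below in both. Brs3 and Sim2 had 0 UMIs in the high cells and are in neither count. Among 4696 genes at 50 CPM or more in either group, all with a ratio, 27.7% were above and 38.1% below in both libraries, with a median ratio of 0.951. These are descriptions of 23 cells, with no test.

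The individual factors had these levels. Pou3f2, a POU-domain factor needed for these neurons in mice, had 349 and 431 CPM in high cells, against 33.0 and 32.8 CPM in other neurons, and was found in 19 of 23 high cells. Sim1, a bHLH-PAS factor of the paraventricular nucleus, had 129 and 154 CPM in high cells, against 11.2 and 15.2 CPM in other neurons. Otp, a homeobox factor that acts beside Sim1, had 342 and 247 CPM in high cells, against 60.4 and 62.1 CPM in other neurons. All 3 were also above the rest of cluster 7, where they had 65.1, 40.7 and 163 CPM. The other listed factors are not set against that cluster here, and Ebf3 was itself among its leading genes.

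Other factors were unevenly spread over the Avp-rich and Oxt-rich cells. Ebf3 had 31 UMIs in the high cells, all in Avp-rich ones, and Fezf2 10 UMIs, likewise, while both had 0 UMIs in the 2 Oxt-rich cells. Both also had 0 UMIs in several Avp-rich cells, among them the one with the most Avp, 1132 UMIs. With 2 Oxt-rich cells, a difference between the kinds of cell cannot be told from these counts. Fezf2 was at 50.9 CPM in high cells, against 0.887 CPM in other neurons, a ratio of 57.4 that rests on 9 and 1 UMIs. Arnt2, the partner of Sim1, had 205 and 139 CPM in high cells, against 120 and 125 CPM in other neurons. Brs3 and Sim2 had 0 UMIs in the high cells.

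Suprachiasmatic genes were not raised as a group. Of the 11 listed, 4 had a UMI in high cells, and of these 0 were above and 1 was below in both libraries. Lhx1, Six6, Nms, Vip, Rgs16, Per2 and Syt10 had 0 UMIs in the 23 cells and were not counted as below. Rora, a nuclear receptor of the clock, had 30.4 and 46.2 CPM in high cells, against 53.7 and 56.6 CPM in other neurons. At the depth of so few cells, 0 UMIs does not show that a gene was absent.

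Genes reported in magnocellular and parvocellular neurons went both ways, with 7 of 16 above and 4 below in both libraries. The median ratio was 1.53 over the 13 with a UMI in high cells. Genes without one have no ratio, so the count below may be too low. Caprin2, an RNA-binding protein that binds vasopressin mRNA in rats, had 372 and 247 CPM in high cells, against 15.6 and 17.5 CPM in other neurons. Kcnmb4, a subunit of calcium-activated potassium channels, had 243 and 139 CPM in high cells, against 17.9 and 17.2 CPM in other neurons. Pdyn, the prodynorphin gene known to be coexpressed with vasopressin, had 539 and 324 CPM in high cells, against 91.2 and 95.9 CPM in other neurons. All 3 exceeded the rest of cluster 7, where they had 20.7, 10.1 and 34.9 CPM.

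Other peptide genes divided in the same way. Galanin, Gal, another partner of vasopressin, had 220 and 493 CPM in high cells, against 148 and 119 CPM in other neurons. Th, which makes L-DOPA, had 91.1 and 46.2 CPM in high cells, against 22.2 and 23.1 CPM in other neurons. Cartpt had 25.4 CPM in high cells, against 591 CPM in other neurons, and Trh 5.09 CPM, against 111 CPM, while Crh and Adcyap1 had 0 UMIs in high cells. Nos1, which makes nitric oxide, had 22 UMIs in the high cells, 18 of them in the 2 Oxt-rich cells and 1 in the 19 Avp-rich cells.

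Of the granule and processing genes 3 of 11 were above and 5 below in both libraries, with a median ratio of 0.924. These counts are near the shares of all genes, 27.7% above and 38.1% below. Pam, which amidates the ends of both hormones, had 744 and 555 CPM in high cells, against 196 and 121 CPM in other neurons. Its UMIs were uneven, with 32, 22, 20 and 17 in 4 cells and 0 to 9 in the others. The prohormone convertase Pcsk1 had 83.5 and 123 CPM in high cells, against 29.6 and 30.3 CPM in other neurons. The granins Scg2 and Vgf were low, with 178 and 96.6 CPM in high cells, against 1099 and 370 CPM in other neurons.

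By size, the 10 genes with the highest ratios, among those at 50 CPM or more in high cells and found in at least 50% of both the Avp and the Oxt high cells, were Caprin2 (19.9), C1ql2 (17.4), Nog (16.5), Ptbp3 (12.1), Kcnmb4 (11.9), Pou3f2 (11.4), Sim1 (10.3), Cdh9 (9.55), Plxnc1 (6.86) and Mest (6.76). The 5 Oxt high cells of this rule include 4 that also held 10 or more Avp UMIs, so the 2 sets are not separate. C1ql2 is a synaptic C1q-like protein, Nog an inhibitor of bone morphogenetic proteins, and Plxnc1 a semaphorin receptor. High cells held few receptor transcripts of their own, 2 UMIs of Avpr1a and 2 of Oxtr.

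A low level of Avp was counted in every named class, and one of Oxt in every class except the microglia-like cells of the library labelled male. Outside the high cells Avp had 25.7 and 18.6 CPM in neurons, against 31.2 and 20.5 CPM in the other named classes together. Oxt had 6.25 and 11.2 CPM in neurons, against 7.31 and 10.2 CPM in the other classes. Neurons lay below the other classes for Avp in both libraries, and for Oxt in the library labelled male only. With every cell thinned to 2000 UMIs, Avp was found in 5.10% and 3.96% of neurons, against 5.21% and 4.02% of other cells.

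The make-up of this low level differed between the libraries. In the library labelled male Oxt was 19.6% of the Avp and Oxt UMIs in neurons outside the high cells (95% Clopper-Pearson interval 16.3 to 23.2), against 19.0% in the other classes (13.4 to 25.6). In the library labelled female it was 37.7% in neurons (33.8 to 41.7), against 33.3% in the other classes (26.3 to 40.9). Intervals overlapped between neurons and other classes in each library, and those of the neurons did not overlap between libraries. Counts below 10 are treated here as a low background, and whether some of these cells express the peptides was not tested.

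**Figure D3:**
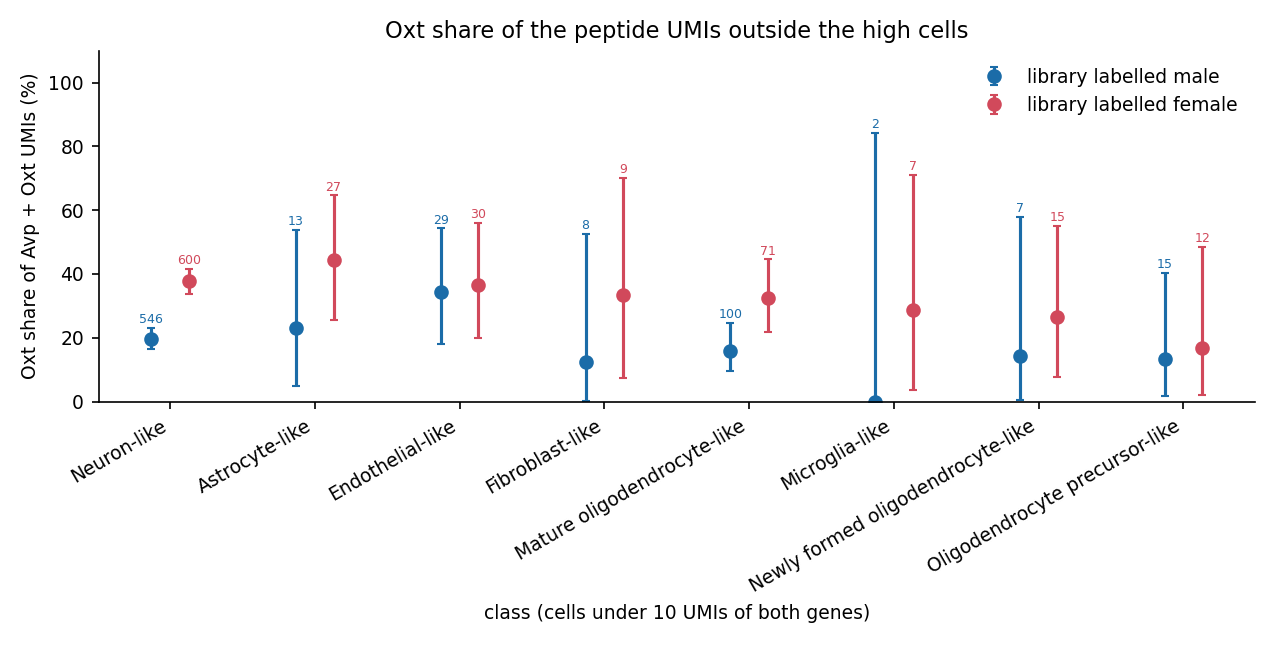
Oxt as a percentage of the Avp and Oxt UMIs of cells outside the 23 high cells, by class and library, with 95% Clopper-Pearson intervals and, above each, the number of UMIs behind it. The neurons lie at 19.6% in the library labelled male and 37.7% in that labelled female, and the intervals of the other classes overlap those of the neurons of their own library.

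Peptide levels of inhibitory and excitatory neurons were compared with and without the high cells, which were chosen by their Avp or Oxt UMIs, so values without them are a description. The excitatory neurons held 8 and 2 of them and the inhibitory neurons 0 and 0. Avp had 25.4 and 17.7 CPM in inhibitory neurons, against 672 and 89.8 CPM in excitatory neurons, and its log2 fold change was -4.01 ± 0.21 (SE; adjusted p = 1.86e-12, quasi-likelihood test of edgeR, adjusted over 13228 genes by Benjamini-Hochberg). From 1 library alone the log2 fold change was -4.72 and -2.34, and the SE does not cover that gap. Without the high cells it was -0.13. Oxt had 6.20 and 11.99 CPM in inhibitory neurons, against 12.1 and 658 CPM in excitatory neurons. Its log2 fold change was -5.26, which was not called by DESeq2 (adjusted p = 0.466) or by edgeR with no replicate block (adjusted p = 0.0508). Without the high cells it was 0.10.

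Hcrt-high neurons held 0 high cells, against 7 and 2 in the other excitatory neurons. Their Avp level was 28.1 and 28.8 CPM, against 929 and 111 CPM in the other excitatory neurons, and the log2 fold change was -3.67 ± 0.26. Without the high cells it was 0.59, a description with no test. With the high cells kept, DESeq2 did not call Avp in Hcrt-high neurons (adjusted p = 0.0647) or Oxt in Pmch-high neurons (adjusted p = 0.256). Without them the levels were 28.1 and 28.8 CPM in Hcrt-high neurons, against 27.9 and 18.1 CPM in the others, and 31.2 and 20.5 CPM in the classes that are not neurons. Pmch-high neurons held 1 high cell, with 18 Avp UMIs, and had 39.1 and 14.1 Avp CPM. Their log2 fold change of Avp was -4.03 and without the high cells 0.11. The log2 fold changes of Oxt were -5.68 in Hcrt-high and -5.14 in Pmch-high neurons, and -0.0083 and 0.10 without the high cells. All values without the high cells are descriptions, since those cells were chosen by the Avp or Oxt UMIs compared here.

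Most receptor UMIs were in neurons. Neuron-like cells held 330 of 333 Avpr1a and 373 of 379 Oxtr UMIs of the kept cells. Avpr1a had 8.82 CPM in neurons, against 0.297 CPM in the other named classes, a ratio of 29.6 (95% interval of the count ratio 10.1 to 144). Oxtr had 9.96 CPM in neurons, against 0.595 CPM in the others, a ratio of 16.8 (7.63 to 45.9). The other vasopressin receptor genes, Avpr1b and Avpr2, had 0 UMIs in high cells and in each of the neuron groups compared.

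Levels in neurons were low and close between libraries for Avpr1a. It had 8.64 CPM (95% Poisson interval 7.31 to 10.1) and 8.97 CPM (7.71 to 10.4) in neurons. Oxtr had 12.1 CPM (10.53 to 13.9) in the library labelled male and 8.12 CPM (6.93 to 9.47) in the library labelled female, and these intervals did not overlap. No cell held more than 5 UMIs of either receptor. The non-neuronal UMIs were scattered: of the 3 Avpr1a UMIs 2 were in microglia-like cells, and mature oligodendrocyte-like cells (1204 in all) held 0 of Avpr1a and 1 of Oxtr. In the library labelled female, those 2 UMIs gave Avpr1a 9.42 CPM (1.14 to 34.0) in 42 microglia-like cells, and 2 UMIs gave Oxtr 14.8 CPM (1.80 to 53.6) in 33 fibroblast-like cells. Both levels lay above those of neurons in that library, within intervals that include the neurons' levels.

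Avpr1a was higher in Hcrt-high neurons than in the other excitatory neurons. Hcrt-high neurons, 3.87% of neurons, held 129 of the 330 neuronal Avpr1a UMIs (39.1%). Avpr1a had 52.6 and 50.9 CPM in Hcrt-high neurons, against 4.31 and 4.84 CPM in the other excitatory neurons. The groups did not overlap, and the ratio of summed counts was 11.2 (8.04 to 15.96). The log2 fold change was 3.73 ± 0.24 (SE, n = 2 libraries in each group; edgeR's quasi-likelihood test, adjusted p = 1.19e-17 over 11824 genes).

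The background of calls in this comparison was high. Of all genes tested 40.2% were called in Hcrt-high neurons, 21.0% as higher and 19.2% as lower. Of the 4 genes described here, Avpr1a was called higher and 3 lower, both peptides with the high cells kept.

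The Avpr1a signal was spread over many Hcrt-high cells. It was found in 35 of 83 and 37 of 83 of them (42.2% and 44.6%), at median depths of 16101 and 18593 UMIs. Of these, 22 and 21 cells held 1 UMI, 4 and 7 cells 2, and 9 and 9 cells from 3 to 5. Of all neurons with 2 or more Avpr1a UMIs, 29 of 48 were Hcrt-high. With cells thinned to 2000 UMIs Avpr1a was found in 7.23% and 6.02% of Hcrt-high neurons, against 0.835% and 0.877% of the other excitatory neurons.

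Oxtr was nearly absent from the same cells. Hcrt-high neurons held 0 and 1 Oxtr UMIs, against 72 and 56 in the other excitatory neurons, a count ratio of 0.0334 (0.000838 to 0.189). The log2 fold change was -4.54 ± 0.78 (SE; edgeR's quasi-likelihood test, adjusted p = 5.63e-06).

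Oxtr was higher in Pmch-high neurons than in the other excitatory neurons. Pmch-high neurons, 3.40% of neurons, held 111 of the 373 neuronal Oxtr UMIs (29.8%). Oxtr had 47.4 and 40.5 CPM in Pmch-high neurons, against 14.8 and 9.68 CPM in the other excitatory neurons, with a count ratio of 3.70 (2.85 to 4.81) and groups that did not overlap. The log2 fold change was 2.11 ± 0.20 (SE, n = 2 libraries in each group; edgeR's quasi-likelihood test, adjusted p = 1.09e-05 over 11791 genes). In this comparison 33.4% of genes were called, 18.4% as higher and 15.0% as lower, and of the 4 genes described here 1 was higher and 2, both peptides, were lower.

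Detection of Oxtr was as broad as that of Avpr1a in its own group. It was found in 35 of 85 and 24 of 61 Pmch-high cells (41.2% and 39.3%), with 14 and 15 cells at 1 UMI, 13 and 4 at 2, and 8 and 5 at 3 to 5. With cells thinned to 2000 UMIs it was found in 8.33% and 9.84% of Pmch-high neurons, against 2.67% and 1.61% of the other excitatory neurons. Avpr1a was low in these cells, with 1 and 2 UMIs, against 21 and 28 in the other excitatory neurons. Its count ratio was 0.262 (0.0521 to 0.810), and its log2 fold change of -1.61 ± 0.73 was not called by edgeR (adjusted p = 0.114).

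**Figure D4:**
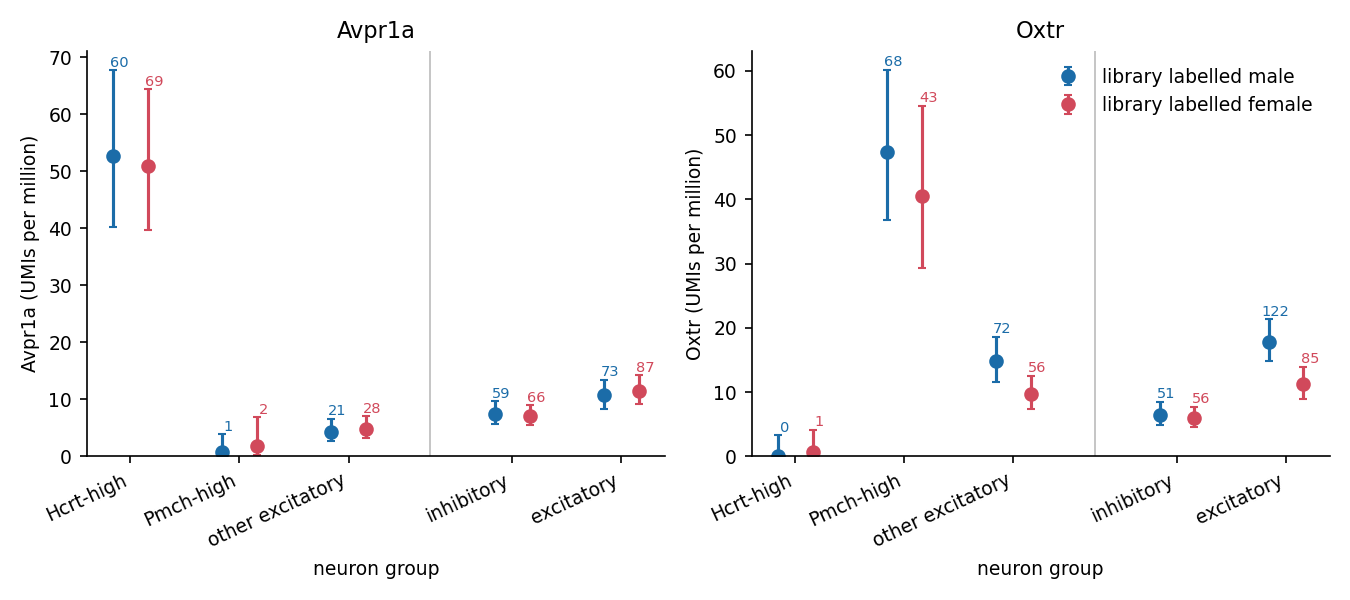
Avpr1a and Oxtr levels in UMIs per 1000000 by neuron group, with 95% Poisson intervals and the UMIs behind each point, for the libraries labelled male and female. Avpr1a reaches 52.6 and 50.9 in Hcrt-high neurons and Oxtr 47.4 and 40.5 in Pmch-high neurons, each above the other groups shown.

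Inhibitory neurons held less of both receptors than excitatory neurons. Avpr1a had 7.464 and 7.002 CPM in inhibitory neurons, against 10.7 and 11.5 CPM in excitatory neurons, a log2 fold change of -0.66 ± 0.18 (SE; edgeR's quasi-likelihood test, adjusted p = 0.00833). Without Hcrt-high and Pmch-high neurons this turned to 0.65 and was not called by edgeR (adjusted p = 0.0995), and with cells thinned to 3000 UMIs it was -0.10 (edgeR, adjusted p = 0.928). DESeq2 gave an adjusted p of 0.856. Those groups were left out together, and over both libraries Avpr1a had 51.7 CPM in Hcrt-high and 1.20 CPM in Pmch-high neurons, against 4.60 CPM in other excitatory neurons.

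Oxtr kept its direction. It had 6.45 and 5.94 CPM in inhibitory neurons, against 17.8 and 11.2 CPM in excitatory neurons, a log2 fold change of -1.25 ± 0.18 (SE; edgeR's quasi-likelihood test, adjusted p = 1.78e-05), while DESeq2 gave an adjusted p of 0.0648. Of all genes 22.1% were called, 12.1% as lower and 9.99% as higher in inhibitory neurons. All 4 genes described here were called lower, the peptides with the high cells kept. Summed over both libraries, inhibitory neurons were 48.7% of neurons and held 37.9% of the neuronal Avpr1a and 28.7% of the neuronal Oxtr UMIs.

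The clusters gave an order of levels. Avpr1a was highest in cluster 11, led by Hcrt (47.4 and 47.3 CPM), followed by cluster 6, led by Nts and Crh (17.5 and 19.1 CPM), cluster 16, led by Ebf3 and Nxph4 (13.9 and 14.1), cluster 4, led by Tac2 (10.0 and 17.6), and cluster 2, led by Gal (12.9 and 11.2). The ranges of the libraries did not overlap between clusters 11 and 6 or between 6 and 16. They overlapped between 16 and 4 and between 4 and 2. Cluster 2, an inhibitory cluster of 555 cells, held 54 UMIs, the second largest number after the 129 of cluster 11.

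The order for Oxtr was less certain. Cluster 14, led by Pmch, had 48.2 and 42.5 CPM, and cluster 13, led by Fezf1 and Adcyap1, 55.7 and 20.9 CPM, above cluster 14 in the library labelled male and below it in the other. Cluster 12, led by Npw, had 26.7 and 5.54 CPM, and cluster 19, led by Synpr and Nos1, 7.08 and 12.2 CPM. The ranges of neighbours in this order overlapped down to rank 9. Cluster 13 held 65 of the neuronal Oxtr UMIs (17.4%), and cluster 8, led by Trh, held 0 in its 100 cells.

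**Figure D5:**
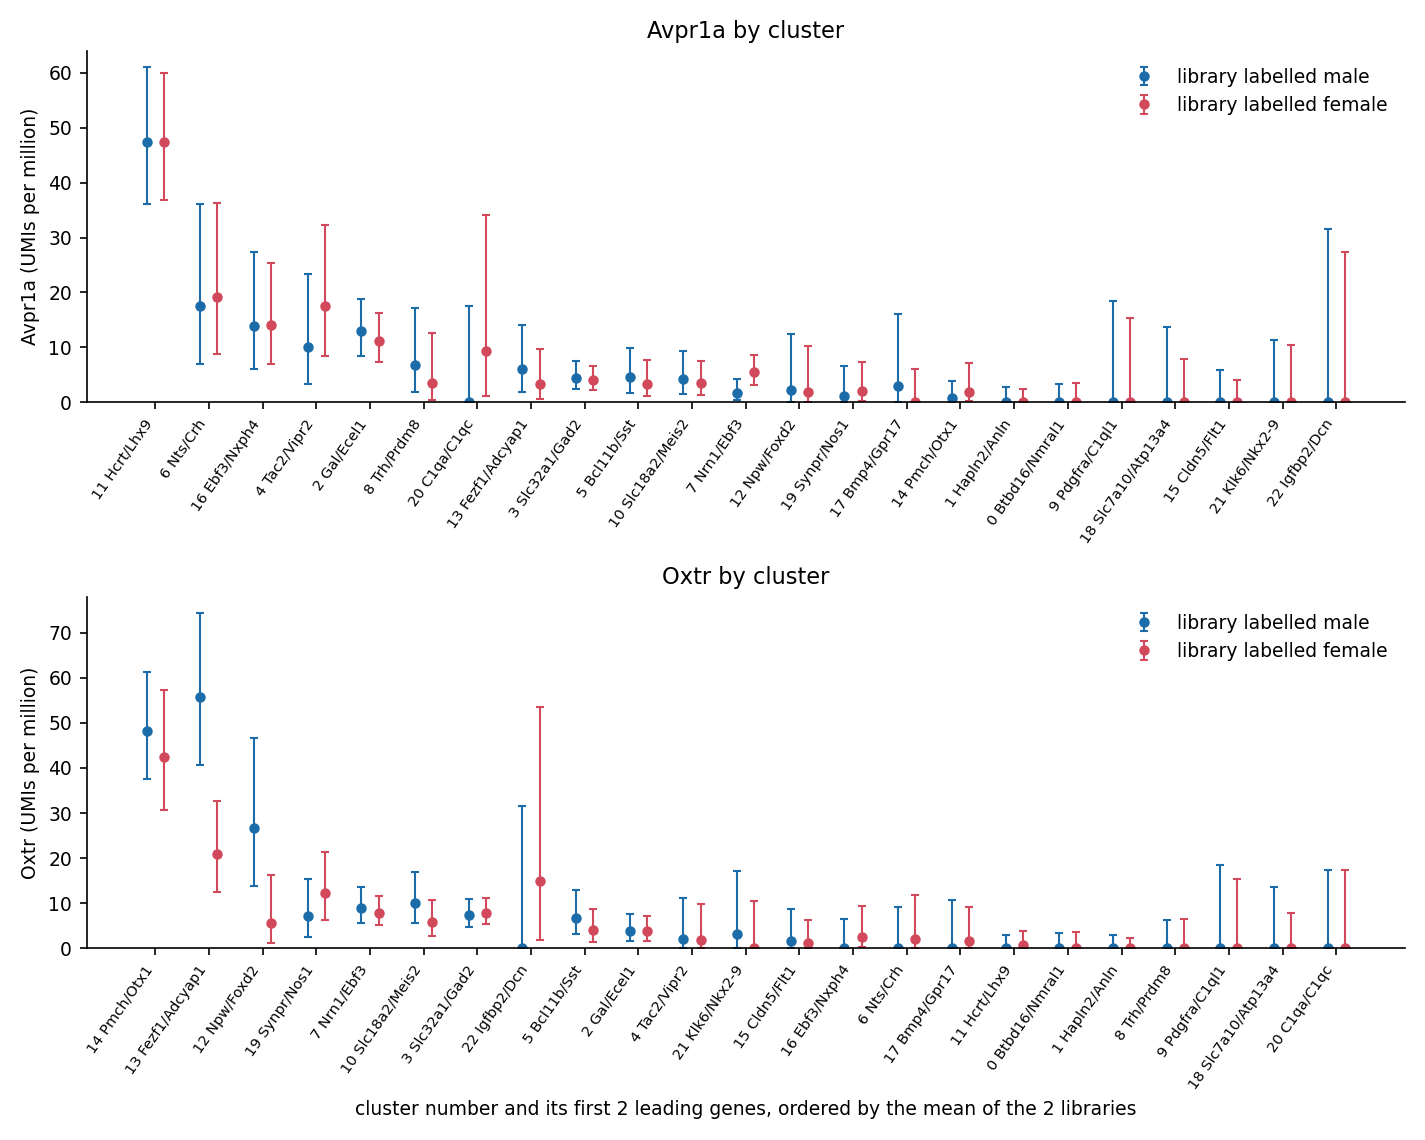
Levels of Avpr1a and Oxtr in UMIs per 1000000 in each cluster of 50 or more cells, 1 point for each library with its 95% Poisson interval, clusters ordered by the mean of the libraries. Avpr1a is highest in the Hcrt cluster (47.4 and 47.3), and Oxtr in the Pmch cluster (48.2 and 42.5) and in cluster 13, where the intervals of the libraries do not overlap (55.7 and 20.9).

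The receptors were seldom counted in the same cell. Of 4294 neurons 252 held an Avpr1a and 274 an Oxtr UMI, and 13 held both, 9 and 4 in the libraries. That is 0.442% and 0.177% of neurons, beside a product of the separate shares of 0.418% and 0.334%. At these low counts a cell without a UMI may still express the gene.

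Signalling genes downstream of the receptors went both ways. Of 12 tested genes of the Gq pathway, edgeR called 2 higher and 6 lower in Hcrt-high neurons, with a median log2 fold change of -0.65, against -0.01 over all genes, of which 21.0% were called higher and 19.2% lower. Rgs2, which shortens Gq signals, rose by 2.203 ± 0.107, and the calcium release channel Itpr1 by 0.63 ± 0.16, while the phospholipase Plcb1 was at -3.05 ± 0.29 (log2 fold change ± SE; largest adjusted p of the 3 by edgeR 0.0011). The G proteins Gnaq (0.20 ± 0.10) and Gna11 (0.29 ± 0.13) did not pass. For Pmch-high neurons, edgeR called 2 of 12 higher and 5 lower, with Gna11 (0.39 ± 0.11) higher and Rgs4 (-2.13 ± 0.15) lower, beside 18.4% and 15.0% of all genes. The counts of higher genes are near these shares of all genes.

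Of 11 granule and processing genes 8 were higher and 0 lower in Hcrt-high neurons, among them Scg2 (4.44 ± 0.18) and Pcsk1 (4.66 ± 0.13), and Pmch-high neurons had 4 higher and 5 lower. Over all genes these shares were 21.0% higher and 19.2% lower in Hcrt-high, and 18.4% and 15.0% in Pmch-high neurons. Of the paraventricular factors, 1 of 8 was higher and 5 were lower in Hcrt-high, and 0 of 8 higher and 7 lower in Pmch-high neurons, Otp being at -5.24 ± 0.28 and -5.69 ± 0.26. In inhibitory neurons 1 of 9 of them was higher and 7 were lower, beside 9.99% and 12.1% of all genes. Avpi1, a vasopressin-induced gene, rose by 1.87 ± 0.16 in Hcrt-high neurons, and was at 0.10 ± 0.21 and not called in Pmch-high neurons.

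Over 23 clusters and 14845 genes, genes with a profile among the most like that of Avpr1a by the lower of the 2 libraries' Pearson correlations of log2(CPM + 1) were Fam196a (0.855 and 0.855 in the libraries), Vgf (0.837 and 0.867), Scg2 (0.831 and 0.871) and Dmxl1 (0.811 and 0.823). For Oxtr they were Nnmt (0.775 and 0.811), Hpcal1 (0.753 and 0.753), Guk1 (0.700 and 0.830), Mak (0.694 and 0.707) and Nkx2-1 (0.675 and 0.676). The 23 clusters include non-neuronal ones, in several of which both receptors had 0 CPM. The correlations thus also take in the difference between neurons and other cells. The clusters share libraries and differ in depth, and these correlations are descriptions.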

How the data were processed

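The deposited files hold raw UMI counts per gene and cell barcode, without normalization, for each library. Per the submitters' processing notes, Cell Ranger 2.2.0 and GRCm38/mm10 were used, while annotation release, cell calling and strand use are not given in the sources used. The 4 genes and all gene lists were chosen with earlier results of these data known. GENCODE M21 held 28339 of the 28692 gene identifiers (98.8%).

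Cells with 500 or more genes and at most 20% mitochondrial UMIs were kept, which removed 163 and 163 barcodes. Scrublet scores (scanpy 1.11.5) removed 90 and 110 more as doublets at 0.8% per 1000 barcodes, since its own threshold called only 8 and 11. Leiden clusters (2000 variable genes without the 4 genes, 30 components, 15 neighbours, resolution 1) were named from marker lists. Of 25 clusters, 1 with 31 cells was left unnamed. The endothelial-like cluster was also led by the mural genes Rgs5 and Higd1b. No barcode had fewer than 1987 and 2155 UMIs, so no estimate of free RNA from empty droplets was made.

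Counts were summed for each library and neuron group, and 4 sums per comparison were fitted with edgeR 4.0.16 (filterByExpr, TMM, quasi-likelihood test, library as a block, 1 residual degree of freedom; calls at a Benjamini-Hochberg adjusted p under 0.05). Both arms of a comparison come from the same pools of animals, which is where the pairing comes from, and cells are not replicates. The p-values and SE rest mainly on spread shared over genes. That shared spread had 19.9, 42.3 and 10.4 degrees of freedom in the inhibitory, Hcrt-high and Pmch-high comparisons, beside the 1 residual. Neither p nor SE is thus a measure of the spread between the 2 pools. The tests were tried on simulated sums. DESeq2 1.42.0, library totals without TMM, no filter on low counts, other limits and filters, thinning and the omission of groups were alternatives. CPM are UMIs per 1000000 of the summed total. Count ratios have exact conditional intervals. The genes named are the 4 genes, members of the lists, the 10 leading genes of the high cells and the 5 genes most like each receptor, of which 1 is not reported here; examples within lists were picked after their values were seen.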

Additional observations from a re-analysis of the deposited data

How the results depend on the processing

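Of 212 alternative values for 26 results, 5 reversed, 10 lost their call and 30 moved by more than 1.5 times (counts) or past the Poisson interval (levels). The number of cells with 10 or more Avp UMIs in the library labelled male became 20 at 5 or more UMIs and 20 at 0.1% of UMIs. For Oxt the library labelled male had 9 cells at 5 or more, 2 with the stricter cell filter and 1 at 100 or more, and the library labelled female 5 at 5 or more and 4 at 0.1%. The limit of 100 UMIs and the omission of the high cells from the Hcrt-high and Pmch-high comparisons were chosen after seeing the data. Avpr1a in neurons had 6.39 and 7.09 CPM with thinned cells, and 6.94 CPM with the stricter filter in the library labelled female. Genes called higher and lower by edgeR were 1321 and 1599 in inhibitory neurons, 2480 and 2268 in Hcrt-high and 2168 and 1770 in Pmch-high neurons. By DESeq2 they were 186 and 374, 930 and 681, and 948 and 449. With thinned cells they were 418 and 555, 927 and 777, and 645 and 423, and for inhibitory neurons without Hcrt-high and Pmch-high neurons 719 and 783. Without TMM they were 1448 and 4009 in Hcrt-high and 1242 and 3672 in Pmch-high neurons, where the median gene moved by -0.25 and -0.27 on the log2 scale (-0.18 and -0.17 with no filter on low counts), and no called gene of a list changed direction. With no replicate block the inhibitory comparison called 339 and 592 genes.

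Among log2 fold changes in inhibitory neurons, Avp was -0.13 and Oxt reversed to 0.10 without the high cells, and Oxt was -3.43 by DESeq2 (adjusted p = 0.466) and -5.21 with no replicate block (edgeR, adjusted p = 0.0508). Avpr1a was -0.66 by DESeq2, -0.66 with no replicate block (edgeR, adjusted p = 0.0766), -0.10 with thinned cells, and reversed to 0.65 without Hcrt-high and Pmch-high neurons. Oxtr was -1.24 by DESeq2. In Hcrt-high neurons Avp was -3.26 by DESeq2 (adjusted p = 0.0647) and reversed to 0.59 without the high cells, and Oxt was then -0.0083. In Pmch-high neurons Avp reversed to 0.11 and Oxt to 0.10 without them, and Oxt was -3.50 by DESeq2 (adjusted p = 0.256). The other receptor calls kept their side of the threshold without the block. The causes of these changes were not tested.

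From 1 library alone, with no test, the log2 fold changes follow for the library labelled male and then for that labelled female. In inhibitory neurons they were -4.72 and -2.34 for Avp, -0.96 and -5.77 for Oxt, -0.51 and -0.71 for Avpr1a and -1.46 and -0.91 for Oxtr. In Hcrt-high neurons they were -5.03 and -1.93 for Avp, -2.82 and -6.05 for Oxt, 3.59 and 3.38 for Avpr1a and -5.08 and -3.14 for Oxtr. In Pmch-high neurons they were -4.56 and -2.93 for Avp, -1.08 and -6.31 for Oxt, -2.08 and -1.06 for Avpr1a and 1.68 and 2.07 for Oxtr. Depth limits what 0 UMIs can show, and the receptors rest on 333 and 379 UMIs in all. In microdissected tissue, cells of a neighbouring nucleus and cells of the labelled region cannot be told apart.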

Other observations

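Neurons with 5 or more UMIs of a given peptide gene held the receptors at unequal levels. Outside Hcrt-high and Pmch-high neurons, Avpr1a had 17.0 and 18.0 CPM in Gal neurons, 13.4 and 14.8 CPM in Nts neurons, 13.2 and 15.9 CPM in Tac2 neurons and 3.40 and 3.21 CPM in Sst neurons. These are genes of galanin, neurotensin, neurokinin B and somatostatin. Pdyn neurons had 44.1 and 45.9 Avpr1a CPM in all, but 3.90 and 5.01 CPM, from 1 UMI in each library, outside Hcrt-high and Pmch-high neurons. Oxtr had 49.9 and 20.3 CPM in Adcyap1 neurons, which make the peptide PACAP, 25.1 and 6.74 CPM in Tac1 neurons and 13.6 and 7.70 CPM in Sst neurons. It had 0 UMIs in 59 and 59 Trh neurons, where Avpr1a had 7 and 1 UMIs. A neuron can be counted under more than one peptide, and these values carry no test.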
